A study of Rattus norvegicus with 24 samples.

Results

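The genes described here are those whose level followed transthyretin (Ttr, ENSRNOG00000016275) from library to library in rat hippocampus. They were chosen by their values: an average level of 1 CPM or more over 24 libraries (CPM is the count of a gene divided by all reads assigned to genes in that library, times 1e+06), and a Pearson correlation of at least 0.9 between their log2(CPM + 0.5) and that of Ttr across all 24. This gave 89 genes, Ttr and 88 others, of 13796 genes that met the level requirement and 32883 genes in the count table. Each library was made from messenger RNA of dissected, snap-frozen hippocampus of male Sprague-Dawley rats, with training and corticosterone, the main glucocorticoid of the rat, as its 2 factors. Untrained rats gave 7 libraries with vehicle and 6 with corticosterone, and trained rats 5 with vehicle and 6 with corticosterone, and no allele or transgene is named. The study's title gives its subject as memory formation enhanced by glucocorticoids. The labels used here do not give the training task, the dose, the time of sampling or the age, nor whether 2 libraries can share a rat. The p-values below therefore rest on the spread among libraries, which may be partly technical.

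Transthyretin is a secreted protein that carries thyroxine and, together with retinol-binding protein, retinol. In the brain its main source is the epithelium of the choroid plexus, the tissue that secretes cerebrospinal fluid into the ventricles, while in blood plasma it comes from the liver. The choroid plexus of the lateral ventricle lies against the hippocampus, and Ttr is widely used as a marker of that epithelium. The count table does not pair its gene identifiers with names, and 0 of them could be matched to the available reference table of rat genes. The fixed marker lists of choroid plexus, ependymal, meningeal, vascular, immune, neuronal and glial cells could therefore not be looked up, so the cell type behind these genes was not checked beyond Ttr, and the genes are called Ttr-correlated genes here. For the same reason 2 further genes are given by identifier and the rest by rank and range. In bulk tissue, fewer cells of a type and less RNA per cell cannot be told apart.

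Total counts in genes were 13760331 to 16765088 reads per library, with a median of 15754782. Raw Ttr counts ran from 88 to 76788 reads. The libraries stood apart from each other in Ttr, and this was so within each of the 4 groups.

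In untrained vehicle libraries, Ttr was at 6.08 CPM in the lowest, 22.7 CPM in the median and 3142 CPM in the highest library (n = 7). In untrained corticosterone libraries, the lowest was 5.56 CPM, the median 1145 CPM and the highest 3074 CPM (n = 6). The 5 trained vehicle libraries were at 8.31, 11.3, 20.2, 33.6 and 1736 CPM. Each of these groups held libraries of at most 33.6 CPM together with at least 1 library of 1736 CPM or more, and their ranges overlapped over most of their length. In trained corticosterone libraries, Ttr ran from 9.52 CPM through a median of 1264 CPM to 4725 CPM (n = 6), a range that overlapped those of the other groups. From the lowest to the highest of the 24 libraries the level differed 850-fold, and its share of all counted reads rose from 0.000556% to 0.473%.

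**Figure D1:**
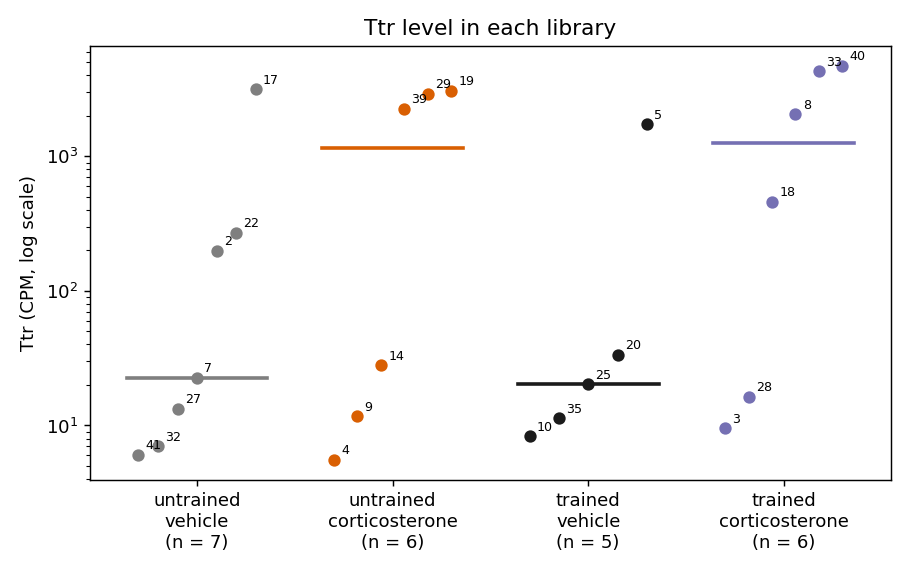
Ttr level of each library in CPM on a log axis, by group, with the sample number beside each point and a line at the group median. Each group holds libraries between 5.56 and 33.6 CPM and libraries of 1736 CPM or more.

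Sorted by Ttr, the libraries fell into 3 ranges with wide steps between them. The first range held 13 libraries from 5.56 to 33.6 CPM. A 5.92-fold step led to 3 libraries, untrained vehicle replicates 2 (199 CPM) and 22 (270.1 CPM) and trained corticosterone replicate 18 (460.4 CPM). A 3.77-fold step then led to 8 libraries from 1736 to 4725 CPM. These 8 were untrained vehicle replicate 17, trained vehicle replicate 5, untrained corticosterone replicates 19, 29 and 39 and trained corticosterone replicates 8, 33 and 40. By treatment they were 6 of 12 corticosterone and 2 of 12 vehicle libraries. The 13 libraries of the first range were 5 of 12 corticosterone and 8 of 12 vehicle libraries.

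All 88 other genes had their 8 highest levels in these same 8 libraries. The rule favours this, since it selects genes by their correlation over the same libraries, but it does not require it. Of the 13796 expressed genes, 243 besides Ttr were higher in each of the 8 than in each of the other 16 libraries, the 88 and 155 more. The lowest correlation with Ttr among those 155 was 0.679. In the opposite direction, 0 genes were lower in each of the 8 than in each of the other 16. For 41 of the 88 genes the 3 libraries of the middle range also lay above all 13 of the first range. The highest level was in trained corticosterone replicate 33 or 40, the pair with the most Ttr, for 82 of the 88.

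**Figure D2:**
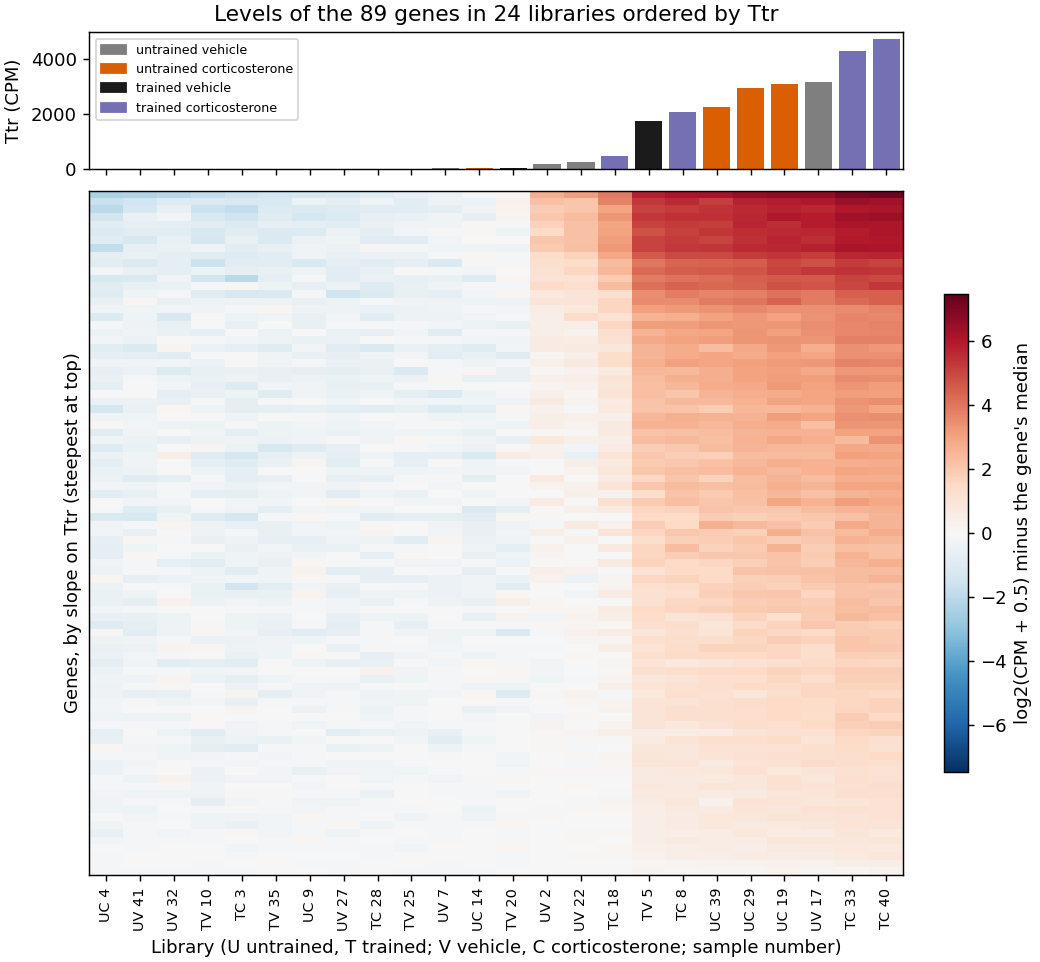
Levels of the 89 genes (rows, ordered by slope on Ttr) in the 24 libraries (columns, ordered by Ttr), as log2(CPM + 0.5) minus the median of the gene, with the Ttr level of each library as bars above in the colour of its group. The 8 libraries on the right are the highest for all 89 genes, and the step becomes smaller towards the bottom rows.

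Correlation was one-sided. While 89 genes reached 0.9, the most negative correlation with Ttr was -0.68, and 0 genes reached -0.9. Of the 88 genes, 33 reached 0.95, 10 reached 0.98 and 5 reached 0.99. The threshold did not fall in a gap. The 5 genes just inside it had correlations of 0.9001 to 0.9042 and mean levels of 2.18 to 79.5 CPM, and the 5 just outside had correlations of 0.8978 to 0.8992 and mean levels of 1.31 to 35.8 CPM.

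The gene closest to Ttr was ENSRNOG00000057855, with a correlation of 0.995. Its level was 0.443, 1.47 and 167 CPM in the lowest, median and highest untrained vehicle library (n = 7) and 0.316, 47.4 and 156 CPM in untrained corticosterone (n = 6). Trained vehicle libraries had a median of 1.02 CPM and a highest value of 102 CPM (n = 5), and trained corticosterone libraries a median of 78.9 CPM and a highest value of 231 CPM (n = 6). As for Ttr, a vehicle library with a high level, untrained vehicle replicate 17 or trained vehicle replicate 5, lay far above the rest of its group. Raw counts of this gene ran from 5 to 3656 reads.

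ENSRNOG00000000571, the most abundant of the 89 genes, behaved differently in size though not in order. It had a mean of 1858 CPM, against 1057 CPM for Ttr, but its libraries spanned only 1601 to 2429 CPM, a 1.52-fold difference. Untrained vehicle libraries were at 1631 to 2100 CPM with a median of 1714 CPM (n = 7), and untrained corticosterone libraries at 1601 to 2181 CPM with a median of 1919 CPM (n = 6). In trained rats the range was 1635 to 1975 CPM with vehicle (median 1697 CPM, n = 5) and 1698 to 2429 CPM with corticosterone (median 1912 CPM, n = 6). Most of its level was thus present in every library, and the groups overlapped. Its correlation with Ttr was 0.906, rank 82 of 89.

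The 89 genes ranged between these patterns. Their mean levels went from 1.03 to 1858 CPM with a median of 9.42 CPM, below the median of 24.6 CPM over the 13796 genes, and 45 lay under 10 CPM, 39 between 10 and 100 CPM and 5 above 100 CPM. To compare how steeply they followed Ttr, the slope of log2(CPM + 0.5) on that of Ttr was taken, where 1 is a change in proportion to Ttr. The added 0.5 CPM flattens the slope of genes with low counts. The slope was 0.03 to 0.84 with a median of 0.29.

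Of the 88 genes, 14 had a slope of 0.5 or more. In their lowest library they were at 0 to 1.08 CPM and in their highest at 16.1 to 249 CPM. Their median correlation with Ttr was 0.989, and in a straight-line fit of CPM on Ttr CPM, the level at a Ttr of 0 was 2.76% to 10.4% of their mean level. At the other end, 6 genes had a slope under 0.1. They were at 4.92 to 1601 CPM in their lowest library, and the fitted level at a Ttr of 0 was 80.05% to 94.9% of their mean, so that most of their fitted level did not vary with Ttr. The remaining 68 genes lay between, with a median fitted level at a Ttr of 0 of 33.9% of the mean (range 2.30% to 77.3%).

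**Figure D3:**
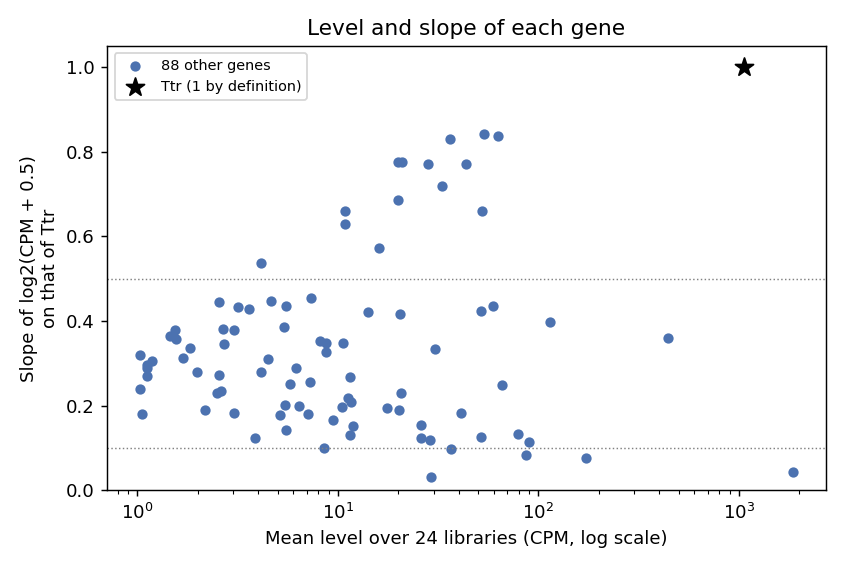
Slope of log2(CPM + 0.5) on that of Ttr against mean level in CPM (log axis), 1 point per gene, with dotted lines at slopes of 0.1 and 0.5. Slopes run from 0.03 to 0.84, and the most abundant gene besides Ttr, at 1858 CPM, is among the shallowest.

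On the linear scale a straight line on Ttr took up most of the variance of the levels. High shares are favoured by the rule, which selects genes by their correlation with Ttr over the same libraries. They are also favoured by the wide distance in Ttr between the libraries of the first range and those of the high range. The shares given here thus describe the genes chosen and do not test whether the relation is a straight line. The median share of the variance of CPM that a straight line on Ttr CPM described was 0.968 (range 0.691 to 0.992), and it was at least 0.9 for 82 of the 88 genes. Summed over the 88, the level was 2630.2 CPM at a fitted Ttr of 0 and rose by 1344 CPM for each 1000 CPM of Ttr, with 0.991 of the variance described. The largest part of that rise from a single gene was 288 CPM, from a gene with a mean level of 442 CPM. ENSRNOG00000000571 gave 154 CPM, and in the library with the least Ttr it made up 1601 CPM of a sum of 2419 CPM. Together with Ttr, the 89 genes took 0.242% to 1.31% of the counted reads of a library.

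The sum of the 88 genes changed little in the first range of Ttr. There it was 2419 to 2709 CPM over 13 libraries in which Ttr itself differed 6.06-fold, from 5.56 to 33.6 CPM. At the fitted rise of 1344 CPM for each 1000 CPM of Ttr, so narrow a range of Ttr leaves little room for change. The sum thus cannot show whether the genes followed Ttr in that range. In the 3 libraries of the middle range it was 2891 to 3307 CPM, and in the 8 of the high range 5293 to 8409 CPM. In untrained rats the sum averaged 3303 ± 1571 CPM with vehicle (SD, n = 7) and 4549 ± 2204 CPM with corticosterone (SD, n = 6). In trained rats it averaged 3159 ± 1195 CPM with vehicle (SD, n = 5) and 5165 ± 2754 CPM with corticosterone (SD, n = 6). Each group mixed libraries of the low and high ranges, and every difference between group means was smaller than the SD of the group with the higher mean.

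Because the libraries fell into separate ranges, the correlation with Ttr was also described inside them. The rule had used the libraries of each range, so it favours higher values in the 88 genes than in the others. The comparisons with other genes inside a range therefore describe the genes chosen and give no independent support. Within the 8 libraries of the high range the median correlation of the 88 genes with Ttr was 0.928 (median Spearman correlation 0.905), and 56 genes were at 0.9 or more. Among the 13707 other genes the median was 0.136, and 0.54% were at 0.9 or more. One gene had a correlation of only 0.026 there. Inside the first range of 13 libraries, the median was 0.235 (median Spearman correlation 0.234), 0 of 88 genes reached 0.9 and 16 reached 0.5, against a median of 0.0339 in the other genes, of which 4.1% reached 0.5. Counts were low there, as 25 of the 88 genes had a median count under 10 reads in those libraries, and their part in the lower correlation was not tested.

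**Figure D4:**
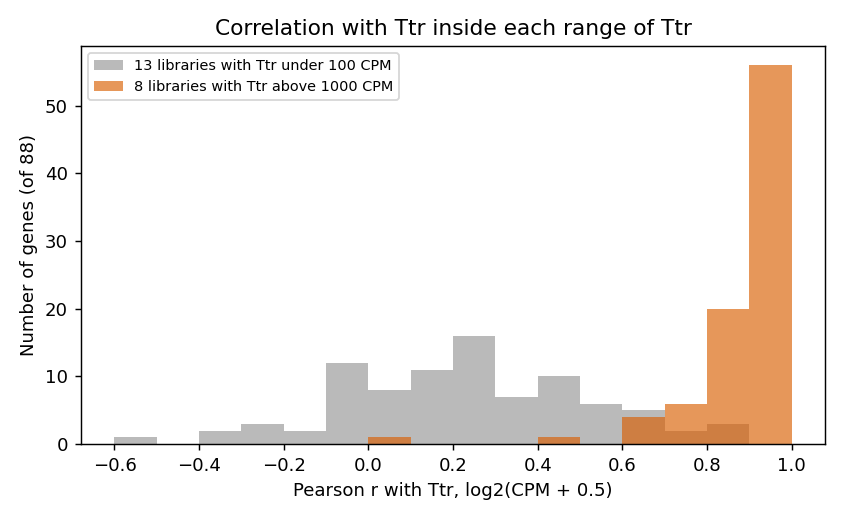
Number of the 88 genes by their Pearson correlation with Ttr inside the 13 libraries with Ttr under 100 CPM (grey) and inside the 8 libraries with Ttr above 1000 CPM (orange). The medians are 0.235 and 0.928.

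The relation was present within each treatment. In the 12 vehicle libraries the 88 genes had correlations of 0.786 to 0.9902 with Ttr (median 0.903), and in the 12 corticosterone libraries of 0.888 to 0.999 (median 0.958). A correlation of 0.9 or more was reached by 45 genes with vehicle, by 86 with corticosterone and by 43 in both. Among the other genes, the median was 0.0627 with vehicle and 0.148 with corticosterone. The vehicle value rests on few libraries with much Ttr, since only 2 of 12 were above 1000 CPM. These libraries are the ones the rule used, so the values describe the genes and give no independent support.

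Whether the level differed with corticosterone was tested on the labels, which the rule had not used. The mean of log2(CPM + 0.5) of Ttr was 5.90 in untrained vehicle, 7.55 in untrained corticosterone, 5.39 in trained vehicle and 8.59 in trained corticosterone libraries. Averaged over training, Ttr was 2.43 higher on that scale with corticosterone. The difference did not pass at an adjusted p under 0.05 (two-sided permutation test within training state, p = 0.119, adjusted p = 0.338 over 4 tests). It was 1.65 in untrained rats (exact two-sided permutation test, p = 0.450, adjusted p = 0.5998) and 3.20 in trained rats (exact two-sided permutation test, p = 0.169, adjusted p = 0.338), and neither passed. Between trained and untrained rats the difference was 0.26 (two-sided permutation test within treatment, p = 0.858, adjusted p = 0.858).

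In edgeR's quasi-likelihood test over 14838 genes, the log2 fold change of Ttr for corticosterone averaged over training was 1.90 (SE 1.16, 95% interval -0.48 to 4.29, adjusted p = 0.690). It was 1.41 (SE 1.56) in untrained and 2.39 (SE 1.70) in trained rats, with edgeR adjusted p of 0.902 and 0.818. Among the fits that left out 1 library, those without a vehicle library of the high range moved the averaged value most. It was 3.18 without untrained vehicle replicate 17 (edgeR adjusted p = 0.265) and 4.05 without trained vehicle replicate 5 (edgeR adjusted p = 0.210). Within untrained rats it was 3.97 without the former (edgeR adjusted p = 0.565), and within trained rats 6.70 without the latter (edgeR adjusted p = 0.504). ENSRNOG00000057855 had a log2 fold change of 1.72 averaged over training (SE 0.97, edgeR adjusted p = 0.646) and ENSRNOG00000000571 one of 0.15 (SE 0.06, edgeR adjusted p = 0.413).

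All 89 genes passed the filter on low counts and were tested. For corticosterone averaged over training, 0 of the 89 passed at an adjusted p under 0.05 (edgeR, smallest adjusted p = 0.278), while 0.93% of all genes tested did. All 89 log2 fold changes were above 0, from 0.07 to 1.90, with a median of 1.15. The genes were chosen for moving together, so this is 1 pattern seen 89 times and not 89 observations. At an unadjusted p under 0.05 there were 55 of the 89 and 9.25% of all genes with edgeR. DESeq2 had 55 of the 89 against 6.06% of all genes, fitted without a filter on low counts, and limma 23 against 8.77%, and neither called any of the 89 (0 each). The edgeR count also rested on single libraries. It ran from 10 without trained corticosterone replicate 40 to 88 without untrained vehicle replicate 17 or trained vehicle replicate 5, and 0 of the 89 passed in any of the 24 fits that left out 1 library.

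Within untrained rats 0 of the 89 genes passed for corticosterone (edgeR, 0.357% of all genes called), with 1 at an unadjusted p under 0.05 against 6.39% of all genes, and their median log2 fold change was 0.94. Leaving out 1 library moved these values. Without untrained vehicle replicate 17, the vehicle library of the high range, 74 of the 89 were at an unadjusted p under 0.05 and the median was 1.77. Without untrained corticosterone replicate 19 the count was 0 and the median was at its lowest, 0.65. The count was also 0 without untrained corticosterone replicate 29 or 39, or without untrained vehicle replicate 2, 7, 22, 27, 32 or 41.

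Within trained rats 0 passed (edgeR, 0.162% of all genes called), with 10 at an unadjusted p under 0.05 against 7.1% of all genes, and the median was 1.46. Here too leaving out 1 library moved the values. Without trained vehicle replicate 5 the count was 84 and the median 2.35, and without trained corticosterone replicate 33 or 40 the count was 0 and the median 1.10. The count was also 0 without trained vehicle replicate 20, 25 or 35, with medians of 1.33, 1.27 and 1.26. It rose to 42, 41 and 21 without trained corticosterone replicate 3, 28 and 18, in that order. The count was 3 without trained corticosterone replicate 8 and 1 without trained vehicle replicate 10.

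The interaction, which asks whether the corticosterone effect differed with training, gave 0 of 89 (edgeR, 0% of all genes called), 0 at an unadjusted p under 0.05 against 4.27% of all genes, and a median difference of 0.44. Its direction was not stable. The median was -0.39 without untrained vehicle replicate 17, with 15 of the 89 above 0, and 1.31 without trained vehicle replicate 5. For trained against untrained rats 0 passed (edgeR, 0% of all genes called), 0 were at an unadjusted p under 0.05 against 3.27% of all genes, and the median was 0.04. It was 0.45 and -0.41 without the same libraries in that order.

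DESeq2 and limma also called 0 of the 89 in each of these comparisons. At an unadjusted p under 0.05 DESeq2, fitted without a filter on low counts, had 1, 12, 0 and 0 of the 89 for untrained, trained, interaction and training in that order, against 4.21%, 4.59%, 2.87% and 2.10% of all genes. In the same order limma had 0, 4, 0 and 0 of the 89, against 6.46%, 7.06%, 4.41% and 3.26% of all genes.

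**Figure D5:**
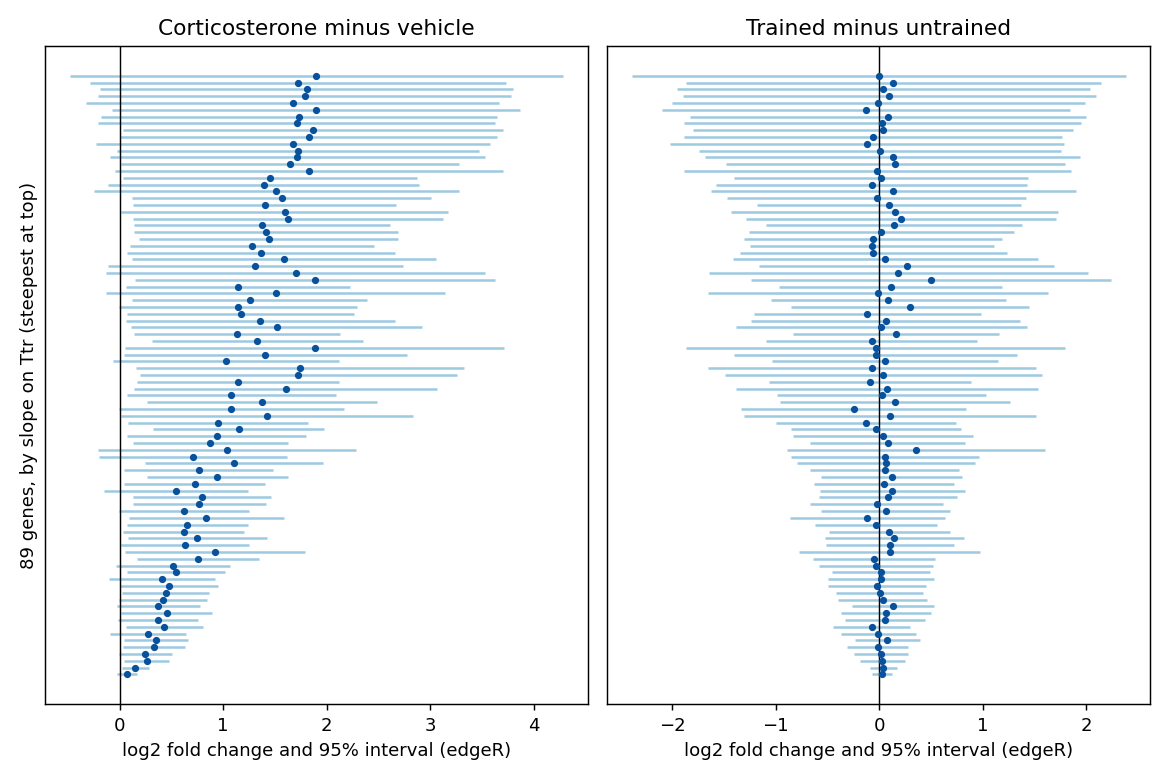
Log2 fold change (points) and 95% interval (bars) of each of the 89 genes from edgeR, for corticosterone minus vehicle averaged over training (left) and trained minus untrained averaged over treatment (right), with the steepest genes on top. The median is 1.15 on the left and 0.04 on the right, and 0 of 89 genes passed at an adjusted p under 0.05 in either.

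Differences between groups were estimated with less precision for these genes than for most. The median half-width of the 95% interval of their log2 fold change for corticosterone averaged over training was 1.10, against 0.12 over all genes tested. The interval lay within 2-fold in either direction for 15 of the 89 genes (16.9%), against 97.1% of all genes. For training it did so for 37 of the 89 (41.6%), against 97.9% of all genes. Library to library, the median SD of log2(CPM + 0.5) of the 88 genes was 1.16, against 0.13 over the 13796 genes. Of the 89, 54 were among the 100 most variable of the 13796. The rule favours a large spread, since Ttr had the largest SD of all 13796 genes. The spread and the wide intervals thus describe the genes chosen and are no separate finding. For most of these genes the data thus did not exclude a 2-fold difference with treatment or with training.

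The 138 genes called for corticosterone averaged over training, 0.93% of all genes tested, held 0 of the 89, as given above. Their correlation with Ttr over the 24 libraries ran from -0.58 to 0.841 with a median of 0.26, and 21 of the 138 (15.2%) had an absolute value of 0.5 or more, against 11.4% of the 13796 genes. When the Ttr level of each library was added to the model as a covariate, 104 genes were called for this comparison (edgeR), of which 95 were among the 138. In that model the 89 genes had a median log2 fold change of 0.08 for corticosterone, 1 had an unadjusted p under 0.05 against 8.07% of all genes, and 0 passed. As the genes were chosen for following Ttr, their fall towards 0 in a model that holds Ttr is part of the construction.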

How the data were processed

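RNA-seq libraries of 24 hippocampal samples were analysed from 1 table of raw read counts per gene that the authors deposited. The submitters' processing notes name the genome build rn6 and the tools STAR 2.7.0b, HTSeq 0.6.1, FastQC and MultiQC. Neither the annotation release nor the strand setting is given in the sources used here. Counts of overlapping or near-identical genes are uncertain for that reason. The 5 summary rows of the read counter, 39.0% of each column on average, were left out. Groups and replicate numbers came from the sample titles. In the table the column of sample 41, an untrained vehicle library by its title, directly follows the trained vehicle columns. Its position would put it with the trained vehicle libraries, but it was kept where its title puts it. The sizes of both vehicle groups rest on that choice, and the other placement was not tested. Without it, 33 of the 89 genes were at an unadjusted p under 0.05 for corticosterone averaged over training (edgeR), 0 in untrained rats, and 0 passed in either. For training and for the interaction 0 were at an unadjusted p under 0.05 without it (edgeR), and the medians were -0.02 and 0.57.

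CPM were computed from column sums, and the genes were chosen by correlation with Ttr as described above. The genes and lists were chosen with earlier results of these data known. Tests used edgeR 4.0.16 (filterByExpr by group, TMM, quasi-likelihood F-test, 4 group means of all 24 libraries) in R 4.3.3, with Benjamini-Hochberg adjustment over 14838 genes and a threshold of 0.05. Standard errors are Wald errors. DESeq2 1.42.0 and limma 3.58.1 were alternatives. Ttr was also tested by permutation of library labels (exact within a training state, otherwise 100000 resamples), adjusted over 4 tests. The scripts were tested on simulated data. The naming rule allowed Ttr and up to 2 other identifiers where names could not be matched. These were the gene with the highest correlation and the one with the highest mean. The divisions of Ttr at 100 and 1000 CPM and of the slope at 0.1 and 0.5 were set after the data were examined.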

Additional observations from a re-analysis of the deposited data

Results flagged for a closer look

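Dixon's test asks whether the gap between an extreme library and its neighbour is large against the whole range of a group. At its 95% level chance marks about 1 group in 20 when values are normally distributed. Here it was applied to CPM without a logarithm, and Ttr CPM differed 517-fold within untrained vehicle libraries, so that rate need not hold. Untrained vehicle replicate 17 stood above its group in Ttr (3142 CPM), in ENSRNOG00000057855 (167 CPM), in ENSRNOG00000000571 (2100 CPM) and in the sum of the 88 other genes (6846 CPM). Trained vehicle replicate 5 stood above its group in Ttr (1736 CPM), in ENSRNOG00000057855 (102 CPM) and in the same sum (5293 CPM). No library stood apart by this measure in either corticosterone group, where 3 of 6 libraries each were in the high range of Ttr. The cause was not tested.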

How the results depend on the processing

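The number of genes that met the rule was 89 with the stated settings, 23 with Spearman in place of Pearson correlation (all 23 among the 89), 182 at a threshold of 0.85 and 34 at 0.95. Computed within treatment, 43 genes met it with vehicle libraries only (40 among the 89) and 210 with corticosterone libraries only (87 among the 89). It was 76 to 121 when 1 library was left out, 83 with TMM or DESeq2 scaling, 83 after centring each group on its own mean (77 among the 89) and 64 without the 2 libraries farthest from the median of Ttr, a choice made after seeing the data. Apart from the settings that gave 23, 34, 43, 182 and 210, the number was 60 to 121 in 32 settings, not all listed here. Each alternative, in the comparisons it was run for, called 0 of the genes tested among the 89. With only the groups of a contrast, 77 of the 89 were tested in untrained and 84 in trained rats. The smallest adjusted p was 0.0843 (edgeR, corticosterone averaged over training, without untrained vehicle replicate 17). The corticosterone differences of Ttr kept their direction in all alternatives in which they were counted. The model with the Ttr level as a covariate was not counted for Ttr, since it holds Ttr itself. The training difference of Ttr, near 0, changed sign: it was 0.26 on the log2(CPM + 0.5) scale and -0.41 to 0.79 when 1 library was left out. Its edgeR log2 fold change was -0.0028 with all libraries, 0.27 with limma and -2.16 to 1.28 when 1 library was left out. The interaction of Ttr was 0.98, and -1.58 to 5.30 when 1 library was left out, with the negative value only without untrained vehicle replicate 17. Over all genes, the count called for corticosterone was 53 in untrained and 24 in trained rats with edgeR, 89 and 60 with DESeq2 without a filter on low counts, and 13 in trained rats when only their 2 groups were fitted. It fell to 33 in untrained rats without untrained vehicle replicate 7 or 41 or untrained corticosterone replicate 39, to 34 without untrained corticosterone replicate 29, and to 14 in trained rats without trained vehicle replicate 10. The groups share no replicate numbers, and the labels state no block. A replicate block for runs of 5 sample numbers was added after seeing the data. Replicate 14 of untrained corticosterone was alone in its block and gave no information there, and replicate 41 was put with the last run. This block called 0 of the 89 genes in each comparison, with 4, 1 and 0 at an unadjusted p under 0.05 for corticosterone averaged, in untrained and in trained rats. Their medians were 1.13, 1.14 and 1.23. It called 79, 35 and 11 of all genes, and the training difference of Ttr was 0.58. Averaged over training, the edgeR log2 fold change of Ttr for corticosterone was 4.41 with this block, against 1.90 without it.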
